A study of Homo sapiens with 12 samples.

Results

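The resting transcriptome of LS180, a widely used human line established from a colorectal cancer, was described from the libraries that received no doxycycline. These are 6 of the 12 libraries of the series, chosen by their labels and not by any measured value. LS180 had been made into 3 derivative lines, each with a doxycycline-inducible construct and each represented by 2 uninduced libraries. The GFP line carried the GFP control, the SOX9 line a V5-tagged wild-type SOX9, and the M303 line a V5-tagged mutant that the series design calls truncated SOX9. The other 6 libraries came from the same lines after 24 h in 0.5 µg/ml doxycycline and were used here only to look again at genes that differed between uninduced lines. All 6 groups therefore carry an inducible construct, and an LS180 culture without one was not analysed here. The labels do not say whether a line is a clone or a pool, so a line, its construct and its history cannot be told apart. Duplicates are stated, but not whether they were grown apart. The p-values therefore reflect the spread of these libraries alone, and that spread may be technical.

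The colonic epithelium is renewed from crypt stem cells, which depend on WNT signals and express LGR5, ASCL2 and OLFM4. Their daughters become absorptive colonocytes or secretory cells, and ATOH1 and SPDEF direct the secretory branch towards goblet cells, which fill with mucins, trefoil factors and the mucin-folding protein AGR2. CDX2 is a homeodomain factor that sets intestinal identity. SOX9, a transcription factor of crypt progenitors and Paneth cells, is the gene that the constructs of the SOX9 and M303 lines encode, in full or truncated form.

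The 6 libraries held 31012775 to 37426903 counts each. Levels of different genes are given as TPM, which divides each count by the gene's exon length and then scales every library to the same total. Differences of 1 gene between libraries are given as CPM, each count relative to the library total with TMM scaling. A gene was called expressed when it reached 1 TPM in all 6 libraries, and 11259 of 19903 protein-coding genes (56.6%) did, while 3907 had no count in any of the 6. A total of 0 over the 6 libraries allows up to 0.0142 CPM, from 3 counts, and this limit covers counting error only. The 10 most abundant genes made up 7.68% to 8.48% of a library's TPM, and mitochondrially encoded genes 1.31% to 1.58% of its counts.

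The libraries matched the label of an intestinal epithelial line. AGR2 stood at 1489 TPM in the lowest library, 1573 at the median and 1638 in the highest, and CDX2 at 174, 215 and 234 TPM. All 9 colorectal epithelial markers, among them EPCAM, CDH17, VIL1 and KRT8, were expressed, with single values between 15.1 TPM (KRT20) and 3638 TPM (KRT8). All 5 goblet markers were expressed too, from MUC2 at 18.4 TPM in its lowest library to TFF3 at 770 TPM in its highest. The wider epithelial lists were less complete, with 22 of 26 goblet cell genes expressed. Of the colonocyte and enterocyte genes 18 of 33 (54.5%) were, against 56.6% of all protein-coding genes. Most markers chosen for other cells that a culture could hold were at or near 0. None of 5 fibroblast markers (highest 0.853 TPM, PDGFRB) and none of 3 endothelial markers (highest 0.145 TPM, VWF) was expressed. Wider lists of these lineages did hold expressed members at low levels. For endothelium these were ESAM (2.55 to 4.02 TPM), ERG (2.37 to 3.82 TPM) and ENG (1.87 to 3.56 TPM). For fibroblast and smooth muscle they were ACTA2 (2.25 to 4.43 TPM) and TAGLN (1.84 to 2.49 TPM). CD3E and CDH5 had no count, and of 4 blood and immune markers only CD14, a lipopolysaccharide co-receptor, was expressed, at up to 7.61 TPM. SNAP25 and RBFOX3 of neurons stayed below 0.230 TPM.

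**Figure D1:**
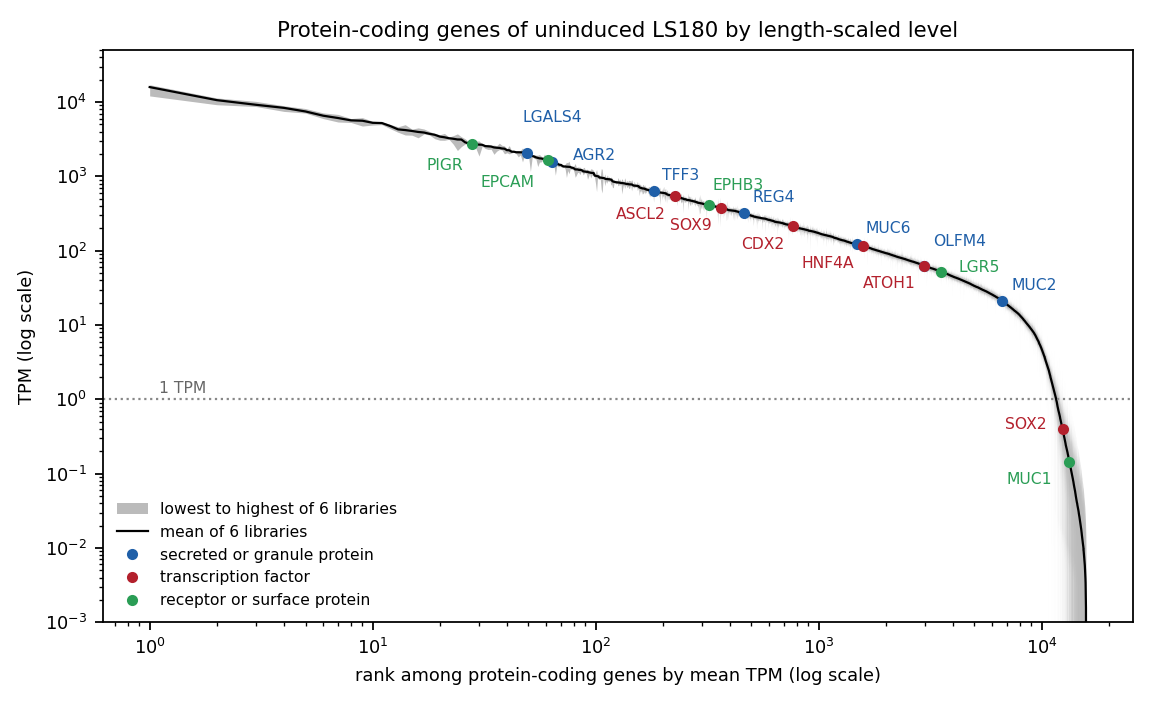
Mean TPM over the 6 uninduced libraries (log scale) against the rank of each protein-coding gene (log scale), with the grey band from the lowest to the highest library and coloured points for named genes of 3 roles. AGR2, LGALS4, PIGR and EPCAM lie among the highest genes, the mucin MUC2 lies near 20 TPM, and MUC1 and SOX2 fall below the dotted line at 1 TPM.

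The most abundant transcripts were housekeeping in kind, and epithelial proteins followed closely. TMSB10, an actin-sequestering thymosin, ranked 1 of all genes at 12102 to 17110 TPM (median 16550). The 20 highest genes also held 6 mitochondrially encoded genes led by MT-CO1, 4 genes of the ribosome (RPS2, RPL13A, RPS12 and RPL8), the elongation factors EEF1A1 and EEF2, and the ferritin chains FTL and FTH1. ACTG1, ACTB, GAPDH, HSP90AB1 and PTMA completed them. KRT8, a keratin of simple epithelia, ranked 21 with 3069 to 3638 TPM. Its partner KRT18 ranked 43 (2081 to 2365 TPM) and KRT19 ranked 61.

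Of 513 listed genes for secreted or granule proteins, 166 (32.4%) were expressed, 35 of them at a mean of 100 TPM or more. LGALS4, a galectin of the intestinal epithelium that leaves cells without a signal peptide, was the highest at 1918 to 2145 TPM (median 2055). AGR2 followed, ranked 68 of all genes. Next came the galectin ligand LGALS3BP (752 to 856 TPM), LGALS3 (679 to 789 TPM) and IGFBP4, a binding protein of insulin-like growth factors (640 to 728 TPM). LGALS4, LGALS3 and AGR2, which assists mucin folding in the endoplasmic reticulum, stood above every listed gel-forming mucin.

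Of 23 mucus granule partners 13 were expressed, AGR2 among them, and the list's summed level was 3142 to 3912 TPM, against 157 to 253 TPM for the 5 gel-forming mucins. TFF3, the trefoil peptide of goblet cells, was at 584 and 451 TPM in the GFP line, 721 and 770 TPM in the M303 line, and 651 and 618 TPM in the SOX9 line. Replicate 2 of the GFP line was the lowest of the 6, and the M303 line held the 2 highest values. TFF1 (265 to 422 TPM), the granule peptide SPINK4 (261 to 405 TPM) and the lectin REG4 (296 to 336 TPM) were next. Among the mucins, MUC6, otherwise a product of gastric glands, was the most abundant at 102 to 170 TPM (median 114). MUC5B, MUC2 and MUC5AC had medians of 22.5, 21.3 and 20.9 TPM, and their ranges overlapped. MUC5B exceeded MUC5AC in all 6 libraries, while the order of either against MUC2 switched between libraries. Some of the listed mucus granule partners were missing or nearly so: CLCA1 averaged 0.195 TPM, and ITLN1 and the REG family members REG1B, REG3A and REG3G had no count.

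Antimicrobial products formed a smaller group, with 9 of 13 expressed. PLA2G2A, a secreted phospholipase that kills bacteria, led at 220 to 262 TPM, ahead of LYZ, lysozyme, at 98.6 to 127 TPM. The protease inhibitor SLPI (50.4 to 79.6 TPM) and the siderophore-binding LCN2 (33.9 to 48.5 TPM) came next. The Paneth cell defensins were low, with DEFA6 at 9.23 to 16.6 TPM and DEFA5 at a mean of 4.62 TPM.

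Proteases and their inhibitors were expressed side by side. SERPINB1, an inhibitor of neutrophil proteases, reached 345 to 397 TPM, SPINT1, an inhibitor of hepatocyte growth factor activator, 212 to 241 TPM and the metalloprotease inhibitor TIMP1 205 to 217 TPM. The highest proteases by TPM were the lysosomal cathepsins CTSB (214 to 224 TPM) and CTSZ (197 to 218 TPM). Their order against a further cathepsin, CTSD, depends on the length used: CTSD averaged 121 TPM with 53.3% of its exon length shared with other genes, and 243 TPM per unshared length, where CTSB averaged 205 and CTSZ 197 TPM. KLK10, a kallikrein-related peptidase, followed at 174 to 207 TPM, and the membrane metalloprotease MMP15 at 168 to 206 TPM. In all, 30 of 90 listed proteases and 18 of 53 inhibitors were expressed.

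Growth factors and cytokines were few but included abundant members. Of 94 growth factors and morphogens 33 were expressed, led by BMP4, a differentiation signal of the villus and surface epithelium, at 425 to 447 TPM. Granulin (GRN, 233 to 267 TPM) and the stress-induced GDF15 (204 to 286 TPM) followed. Of the ligands of the epidermal growth factor receptor, AREG and EREG each averaged 156 TPM, TGFA 22.2, BTC 19.7, HBEGF 8.42 and EGF 8.35 TPM. Of 87 cytokines and chemokines 20 were expressed, led by CXCL16 (174 to 199 TPM), the alarmin IL33 (114 to 151 TPM) and IL32 (71.7 to 95.5 TPM), while 31 had no count. MIF is listed at a mean of 0.837 TPM, but 94.1% of its exon length lies in exons of other genes, where reads were not counted, so that value cannot be read as a low level.

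Other secreted groups were sparse. Only 4 of 28 plasma and lipid transport proteins were expressed, none above 11.8 TPM, and albumin (ALB), APOB and the 3 fibrinogen chains FGA, FGB and FGG had no count. Of 18 gut hormones, ADM (6.69 to 9.85 TPM) and NPW were expressed. SST, CCK and GIP had no count. Of 78 matrix genes 27 were expressed, chiefly galectins, agrin (AGRN, 210 to 260 TPM) and laminin chains such as LAMB1 (72.3 to 87.0 TPM). The fibrillar collagens COL1A1, COL1A2 and COL3A1 stayed at or below 0.275 TPM.

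Of 188 listed transcription factors, 117 (62.2%) were expressed and 22 averaged 100 TPM or more. The highest was ATF4, the effector of the integrated stress response, at 545 to 642 TPM (median 600). ASCL2, a WNT-driven factor of crypt stem cells, came next at 487 to 585 TPM (median 539), and CDX1, a homeodomain factor close to CDX2, stood at 467 to 587 TPM (median 552). ATF4 exceeded ASCL2 in all 6 libraries, although their ranges over libraries overlapped, and the place of CDX1 against both switched between libraries. HES6 (344 to 436 TPM), the crypt factor KLF5 (372 to 419 TPM) and SOX9 (350 to 407 TPM) formed a following group whose ranges also overlapped. MYC (251 to 271 TPM), EHF (239 to 288 TPM) and XBP1 (212 to 223 TPM), a factor of secretory cells, came after them. CDX2 (174 to 234 TPM) lay below CDX1 in every library, without overlap of the ranges.

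Intestinal identity factors were broadly present, with 15 of 20 expressed. HNF4A, a nuclear receptor of the gut and liver, was at 107 to 128 TPM, PITX1, a hindlimb and hindgut factor, at 79.9 to 104 TPM, and FOXA1 at 57.3 to 71.7 TPM. GATA6 averaged 57.0 TPM, but its relatives GATA4 (2 counts in all 6 libraries) and GATA5 (mean 0.0412 TPM) were nearly absent, and NR5A2, a nuclear receptor of the crypt, had no count. Of the secretory factors, 11 of 20 were expressed. ATOH1 was at 58.1 to 66.9 TPM and SPDEF at 40.4 to 51.5 TPM. The enteroendocrine factors differed: ISL1 (7.73 to 9.32 TPM) and NEUROG3 (3.71 to 6.35 TPM) were expressed, while NEUROD1 and NKX2-2 had no count. Of the T-cell factors that carry WNT signals to the genome, TCF7 (24.4 TPM) and TCF7L2 (21.7 TPM) were expressed on average, and LEF1 had 20 counts in all 6 libraries together.

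The HOX genes, which record position along the body axis, were expressed from 2 of their 4 clusters. In the HOXA cluster 8 of 11 genes were expressed, led by HOXA9 (51.4 to 55.8 TPM), HOXA13 and HOXA11. In the HOXB cluster 3 of 10 were, HOXB7 (32.6 to 37.6 TPM), HOXB13 (16.3 to 22.5 TPM) and HOXB6. None of 9 HOXC and none of 9 HOXD genes was expressed, and 8 of the HOXD genes had no count. Of the 42 listed HOX and ParaHOX genes, 3 shared 50% or more of their exon length with other genes. Reads there were not counted, so a low value of such a gene may be an undercount.

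Of 48 nuclear receptors 29 (60.4%) were expressed, close to the 56.6% of all protein-coding genes. Stress factors were expressed in 31 of 34 cases (91.2%). ESRRA, a regulator of mitochondrial genes, was at 192 to 225 TPM, NR2F6 at 146 to 173 TPM and VDR, the vitamin D receptor, at 139 to 173 TPM. Steroid receptors were at or near 0: PGR had no count, ESR1 had 2 counts in the 6 libraries, and the glucocorticoid receptor NR3C1 had 4. Of the stress factors, JUND, JUNB and FOSL1 were among the highest after ATF4, with medians of 210, 162 and 148 TPM.

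Of 276 listed receptors and surface proteins, 144 (52.2%) were expressed and 31 averaged 100 TPM or more. PIGR, which carries immunoglobulin A across the epithelium, was the highest at 2475 to 2890 TPM (median 2777) and ranked 30 of all genes. The adhesion protein EPCAM was at 1604 to 1764 TPM, the colon antigen GPA33 at 585 to 644 TPM, the transferrin receptor TFRC at 536 to 649 TPM and the tetraspanin CD9 at 458 to 512 TPM. Membrane mucins split sharply. MUC13 averaged 379 TPM and MUC3A 30.0 TPM, whereas MUC1 had 36 counts in the 6 libraries and MUC4 averaged 0.0929 TPM.

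**Figure D2:**
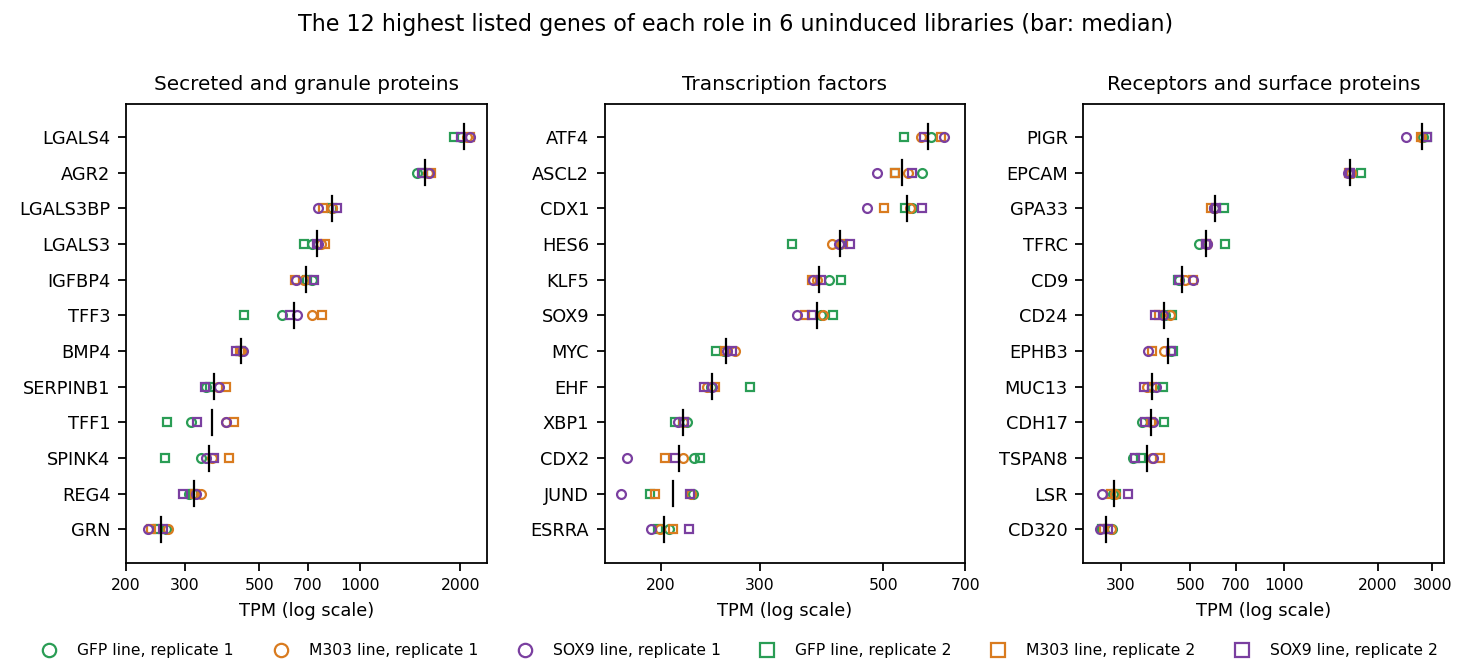
TPM (log scale) of the 12 highest listed genes of each role in each uninduced library, coloured by line, with circles for replicate 1, squares for replicate 2 and bars at the median. The libraries of a gene lie close together, and replicate 2 of the GFP line (green squares) is lowest for TFF3, TFF1 and SPINK4.

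Of 51 receptor tyrosine kinases 25 were expressed, led by the ephrin receptors EPHB3 (365 to 440 TPM) and EPHA2 (234 to 244 TPM), which position cells along the crypt and at junctions. MET, the receptor of hepatocyte growth factor, was at 145 to 185 TPM. In the epidermal growth factor receptor family, ERBB3 averaged 140 TPM, ERBB2 104 TPM and EGFR 26.9 TPM, and ERBB4 had no count. Of the fibroblast growth factor receptors, FGFR4 averaged 52.1, FGFR3 32.4 and FGFR2 17.7 TPM, and FGFR1 had 24 counts in the 6 libraries. PDGFRA, a mesenchymal receptor, had no count.

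Of 26 receptors and receptor regulators of the WNT, Notch and Hedgehog pathways 19 were expressed. LRP5, a WNT co-receptor, was at 113 to 138 TPM, NOTCH1 at 69.6 to 94.0 TPM, and the receptor-removing ligase ZNRF3 at 71.8 to 81.5 TPM. LGR4, an R-spondin receptor, was at 64.9 to 86.4 TPM, and its stem cell relative LGR5 averaged 52.3 TPM. In the Hedgehog pathway the ligand SHH averaged 16.8 TPM and the receptor PTCH1 19.4 TPM, but the transducer SMO had 14 counts in all 6 libraries. Beside the abundant ligand BMP4, the receptors BMPR1A (18.5 to 21.7 TPM), ACVR1 and BMPR2 were expressed, the antagonist GREM1 was at 38.1 to 46.3 TPM, and BMPR1B and the antagonists NOG and CHRD had no count.

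Of 71 cytokine and TNF receptors 27 were expressed, led by TNFRSF12A (173 to 227 TPM) and the death receptor TNFRSF10B (111 to 114 TPM). The interferon receptor chain IFNAR1 averaged 58.5 TPM. Its partner IFNAR2 is listed at 0.486 TPM with 83.2% of its exon length shared with other genes, so that low value is not readable either. Of 74 G protein-coupled receptors 32 were expressed, with GPRC5A (169 to 199 TPM), the protease-activated receptor F2RL1 (155 to 187 TPM) and ADGRE5 (124 to 144 TPM) at the top.

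Drug-handling genes were expressed in 28 of 41 cases. GSTP1, a glutathione transferase, was at 2068 to 2208 TPM and ranked 45 of all genes. CYP2S1, a cytochrome P450 of epithelia, was at 274 to 324 TPM and UGT1A1, which conjugates bilirubin, at 121 to 140 TPM, with 50.1% of its exon length shared within its locus. NR1I2, the xenobiotic receptor PXR, averaged 11.2 TPM and the efflux pump ABCB1 22.2 TPM, while CYP3A4, a main drug-oxidising enzyme of gut and liver, averaged 0.303 TPM. All 9 mismatch repair genes and all 22 proliferation genes were expressed. MSH6 and MSH3 had medians of 28.5 and 24.5 TPM, and PCNA, the sliding clamp of replication and repair, was at 964 to 1084 TPM.

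The 6 epithelial lineage lists differed in how much of each was present. Of the intestinal stem cell genes 17 of 19 were expressed, of the goblet cell genes 22 of 26, of the colonocyte and enterocyte genes 18 of 33 and of the Paneth cell genes 7 of 13, against 56.6% of all protein-coding genes. Enteroendocrine (3 of 22) and tuft cell (2 of 15) genes were mostly absent. The enteroendocrine genes expressed were ISL1, NEUROG3 and SYP (1.03 to 2.03 TPM). Within the colonocyte list the keratins and PHGR1 were abundant. Products of mature absorptive cells were not: the sucrase SI averaged 0.0734 TPM, the chloride exchanger SLC26A3 0.102 TPM and the water channel AQP8 0.0519 TPM. The 2 expressed tuft cell genes were IL17RB, at 51.6 to 58.9 TPM, and ALOX5, at 4.70 to 6.52 TPM. The tuft cell factor POU2F3 averaged 0.481 TPM, and DCLK1, another tuft cell marker, had no count.

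**Figure D3:**
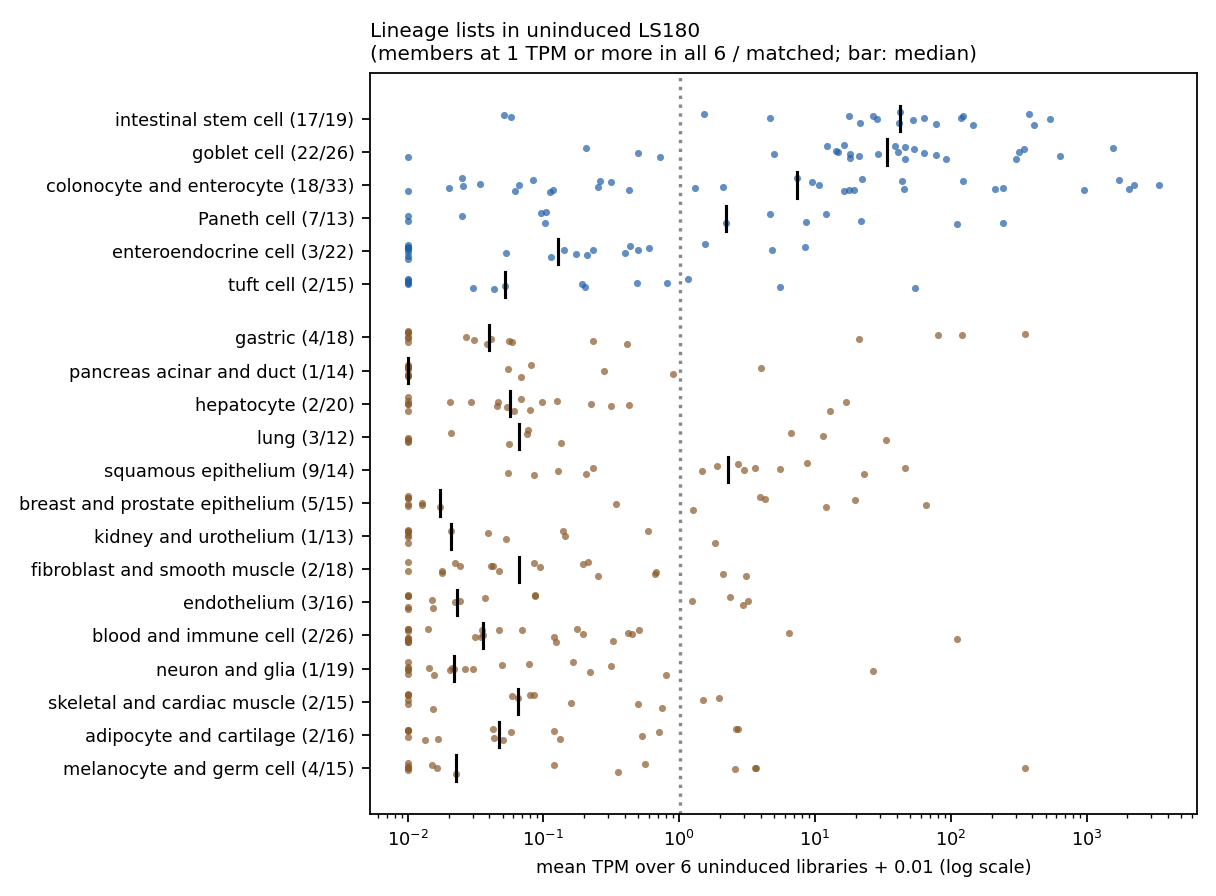
Each point is 1 listed gene at its mean TPM over the 6 uninduced libraries plus 0.01 (log scale), with bars at the list median and the number expressed of the number matched. Stem cell and goblet cell lists lie mostly to the right of the dotted line at 1 TPM, and most lists of other tissues lie to its left.

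Across 14 lists of other tissues, 41 of 230 genes (17.8%) were expressed and 69 had no count. Liver (2 of 20), pancreas (1 of 14), kidney and urothelium (1 of 13), fibroblast and smooth muscle (2 of 18), endothelium (3 of 16), blood and immune (2 of 26), neuron and glia (1 of 19), adipocyte and cartilage (2 of 16) and muscle (2 of 15) each had few expressed members. The 4 gastric genes that were expressed, TFF1, MUC6, TFF2 (55.3 to 95.7 TPM) and MUC5AC, are all mucus products. Of the squamous epithelium list 9 of 14 were expressed, all keratins but DSC3 and led by KRT10, which was at 24.7 TPM in replicate 2 of the GFP line and at 46.8 to 54.1 TPM in the other 5 libraries. Single genes of other tissues were also present, such as FOXJ1 of ciliated cells (28.7 to 39.1 TPM), MBP of myelin (24.5 to 29.6 TPM) and the prostate gene KLK3 (mean 3.90 TPM). By mean TPM the highest genes of these lists were TFF1 and the cancer-testis antigen MAGEA3, which was at 341 to 374 TPM. Its near-identical copy MAGEA6 is listed at a mean of 123 TPM, and reads that match both were not counted, so the level of each is uncertain.

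Before the lines are compared, 1 library has to be named. In replicate 2 of the GFP line, the shortest of 4 equal classes of genes by exon length (up to 3081 bases) lay at a median of -0.10 on the log2 scale from the mean of the 6 libraries, and the longest class at 0.07. No other library's medians went beyond 0.05 in either direction. The same tilt was in the differences from the GFP line: the median M303-minus-GFP log2 difference ran from 0.09 in the shortest class to -0.06 in the longest. The short TFF3, TFF1 and SPINK4 were lowest in that library and the long MUC6, MUC5AC, MUC5B and MUC2 highest. Other short genes were highest there, such as PCNA (1403 bases, 1084 TPM) and PI3 (551 bases, 17.2 TPM). Of 8698 protein-coding genes with a mean of 10 TPM or more, 43.7% were highest in that library and 13.1% lowest. The part of RNA quality or library preparation in this was not tested. Among 165 named genes with a mean of 10 TPM or more, the highest library exceeded the lowest by a median factor of 1.19, against 1.22 over 8698 protein-coding genes at that level.

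Gene by gene, 1 difference between the 3 uninduced lines was resolved. Libraries of the same line differed by a median of 0.11 to 0.14 on the log2 scale (3 pairs), and libraries of different lines by 0.09 to 0.16 (12 pairs). Of 18219 genes tested with edgeR's quasi-likelihood test, 1 differed among the lines at an adjusted p under 0.05, which is 0.00549% of those tested, and 744 (4.08%) had an unadjusted p under 0.05. That gene was OLFM4. The count depended on the fit: it was 0 with the 6 uninduced libraries fitted alone, 3 by DESeq2 and 39 without the filter on low counts. The M303 line against the GFP line gave 1 call, again OLFM4 and 0.00549%, with 1110 genes (6.09%) at an unadjusted p under 0.05, 1 call by DESeq2, 1 with the uninduced libraries alone and 22 without the filter. The SOX9 line gave 0 calls against the GFP line (866 genes, 4.75%, at an unadjusted p under 0.05, 2 calls by DESeq2 and 17 without the filter) and 0 against the M303 line (508 genes, 2.79%, at an unadjusted p under 0.05, and 1 call by DESeq2, OLFM4). Groups did not overlap for 37.4%, 31.5% and 28.3% of genes in the 3 comparisons. With 2 libraries a line such separation arises often without any difference, so these shares are no evidence of one. The median confidence interval (95%) of a log2 difference was ±0.25 for the 13116 genes with a mean of at least 1 CPM, and for 89.3% to 90.2% of them the whole interval lay within a 2-fold change.

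**Figure D4:**
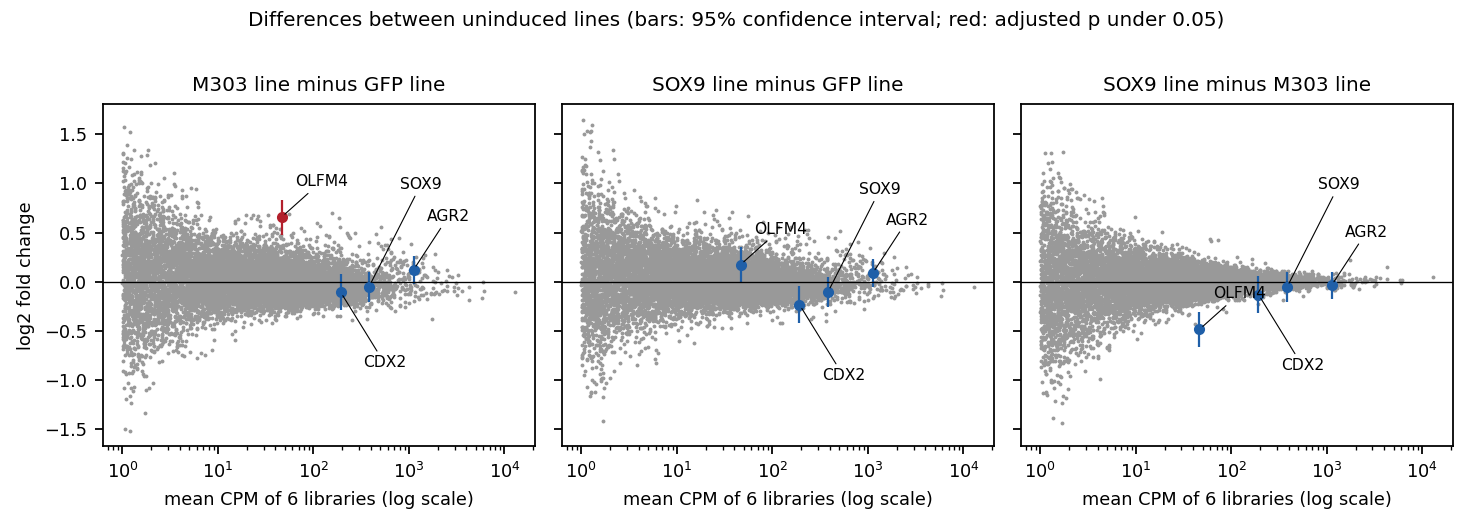
Log2 fold change between uninduced lines against mean CPM (log scale) for genes with a mean of at least 1 CPM, with 95% confidence intervals for 4 named genes. OLFM4 in the M303 line, at 0.66, is the only point in red, and SOX9, AGR2 and CDX2 are not called in any of the 3 panels.

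OLFM4 (ENSG00000102837, hg38 chromosome 13, 53028813 to 53052057, plus strand) encodes olfactomedin 4, a secreted glycoprotein of intestinal crypt stem cells. It was at 38.2 and 36.8 CPM in the uninduced GFP line, 59.6 and 58.7 CPM in the M303 line, and 42.9 and 41.7 CPM in the SOX9 line. Both M303 libraries lay above all others, and the 3 lines did not overlap. The M303 line exceeded the GFP line by 0.66 on the log2 scale (SE 0.09, 95% CI 0.48 to 0.84, edgeR adjusted p = 0.00412). The SOX9 line differed from the GFP line by 0.17 (95% CI -0.01 to 0.35, edgeR adjusted p = 0.920) and from the M303 line by -0.48 (95% CI -0.66 to -0.31, edgeR adjusted p = 0.269). The call was lost without any of 3 libraries: without GFP replicate 2, M303 replicate 1 or M303 replicate 2 the difference was still 0.63 to 0.68, but the edgeR adjusted p was 0.173, 0.117 and 0.0632. Without GFP replicate 1, which leaves the GFP line to the library with the length tilt, 56 genes were called between M303 and GFP.

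In the libraries with doxycycline, which enter the uninduced contrast only through the shared estimate of spread, OLFM4 was again higher in the M303 line. It was at 38.1 and 36.0 CPM in the GFP line and 60.1 and 61.5 CPM in the M303 line, a log2 difference of 0.71 (SE 0.09, edgeR adjusted p = 5.42e-04). The change of that difference with doxycycline was 0.06 (SE 0.12, edgeR adjusted p = 0.992). In the SOX9 line OLFM4 was at 72.1 and 68.1 CPM with doxycycline, above all other libraries, and its difference from the GFP line was 0.92 (edgeR adjusted p = 5.93e-07). Calls with doxycycline made up 0.011% of genes for M303 against GFP and 2.55% for SOX9 against GFP. Changes of the SOX9-minus-GFP difference with doxycycline were called for 0.895% of genes.

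**Figure D5:**
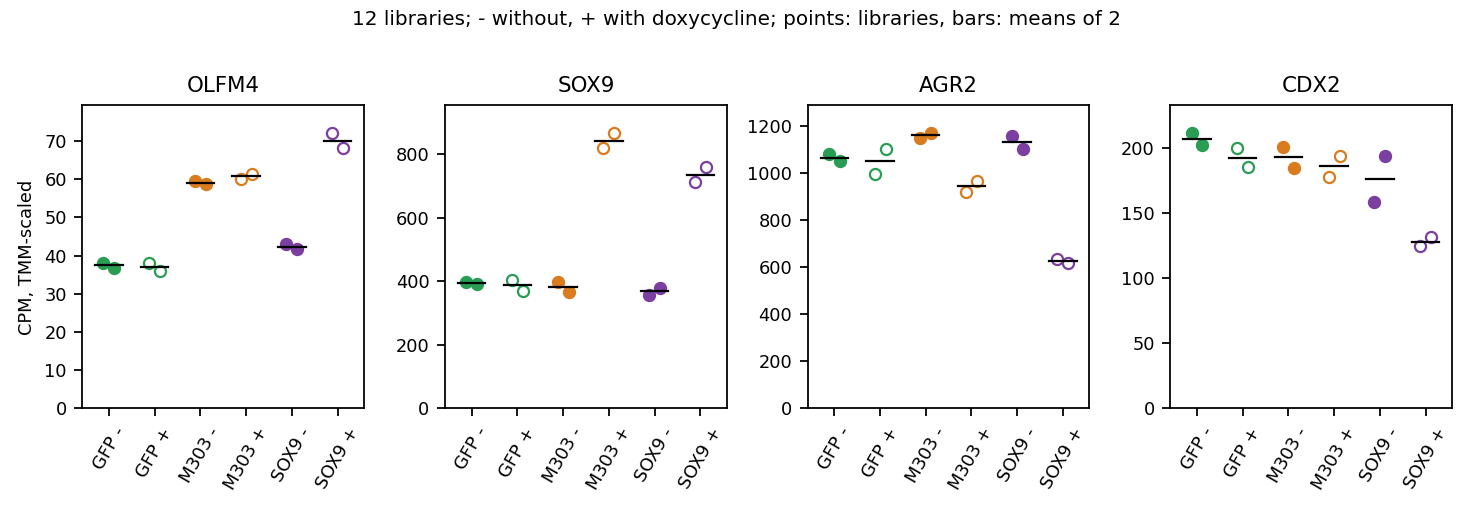
CPM of OLFM4, SOX9, AGR2 and CDX2 in all 12 libraries, filled without and open with doxycycline, with bars at the mean of 2. The uninduced M303 libraries of OLFM4 lie at 58.7 and 59.6 CPM against 36.8 to 42.9 CPM in the other uninduced lines, and the uninduced values of SOX9 lie between 357 and 399 CPM.

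SOX9 itself overlapped across the uninduced lines, apart from lower values in both SOX9-line libraries than in the GFP line. It was at 399 and 392 CPM in the GFP line, 399 and 367 CPM in the M303 line, and 357 and 381 CPM in the SOX9 line, counting endogenous and construct transcripts together. Against the GFP line the log2 difference was -0.05 in the M303 line (95% CI -0.20 to 0.10, edgeR adjusted p = 0.921) and -0.10 in the SOX9 line (95% CI -0.25 to 0.05, edgeR adjusted p = 0.920). The intervals thus reach no further than 0.10 of higher SOX9 in an uninduced construct line, on the log2 scale. As a check of the labels, SOX9 with doxycycline was at 818 and 867 CPM in the M303 line and 712 and 761 CPM in the SOX9 line, against 405 and 371 CPM in the GFP line. That check only sets the induced construct lines apart from the GFP line. SOX9 was raised in both, so it does not tell M303 from SOX9. It does not check the line labels of the uninduced libraries.

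The markers of the resting state were also close across lines. AGR2 was at 1079 and 1051 CPM in the GFP line, 1149 and 1170 CPM in the M303 line, and 1156 and 1104 CPM in the SOX9 line. Its largest difference was 0.12 (M303 minus GFP, 95% CI -0.02 to 0.26). CDX2 was at 211 and 202 CPM, 201 and 185 CPM, and 159 and 194 CPM in the same order, with replicate 1 of the SOX9 line the lowest, and its largest difference was -0.23 (SOX9 minus GFP, 95% CI -0.42 to -0.05, edgeR adjusted p = 0.920). Over the 16 LS180, colorectal and goblet markers, M303 minus GFP differences ran from -0.20 (MUC2) to 0.55 (TFF3) with a median of -0.03, and 0 passed the test. TFF3 had the widest gap, 219 and 232 CPM in the M303 line against 179 and 129 CPM in the GFP line (95% CI 0.18 to 0.93, edgeR adjusted p = 0.799), and its lowest value is that of the library with the length tilt. Of 26 gene lists with at least 10 tested members, medians ran from -0.10 (matrix) to 0.35 (antimicrobial and Paneth products) for M303 minus GFP, from -0.11 (squamous epithelium) to 0.21 (mucus granule partners) for SOX9 minus GFP, and from -0.11 to 0.06 for SOX9 minus M303, against a median over all tested genes of 0.00 in each comparison. Both comparisons with the GFP line include the library with the length tilt. Over genes with a mean of at least 1 CPM, the M303 minus GFP median ran from 0.09 in the shortest class to -0.06 in the longest. The part of gene length in the list medians was not tested. In these lists OLFM4 was the only member called. Chromosome medians stayed between -0.03 and 0.03 in each of the 3 comparisons, over 23 chromosomes.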

How the data were processed

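RNA sequencing counts of 12 LS180 libraries were used, in 6 groups of 2 given by their titles. Reads were aligned with STAR 2.7.0a to hg38, per the submitters' processing notes. The deposited counts are whole reads per gene from featureCounts 2.0.1 on Ensembl release 101, per the file headers, and the deposited exon length is the gene's merged exons. The recorded command holds no paired-end, strand or multi-mapping option. Any mates were therefore counted separately, antisense partners cannot be told apart, and reads over several genes or places were not counted. All 12 columns were used, and 0 were left unused. The 6 uninduced libraries hold 31012775 to 37426903 counts.

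TPM was computed from these counts and lengths, and genes at 1 TPM in all 6 libraries were called expressed. Of 19903 protein-coding genes, 1157 shared 50% or more of their exon length with other genes, so their levels may be undercounted. Symbols were matched to 42020 of 60671 gene IDs, and gene types, from a GENCODE annotation, were matched by ID for 96.3%. Line differences came from edgeR 4.0.16 in R 4.3.3 (TMM, low counts filtered, robust quasi-likelihood fit of all 12 libraries, Benjamini-Hochberg threshold 0.05). The fit was tried on simulated data without a length tilt, where every change was larger than the OLFM4 difference between uninduced lines. That trial therefore does not cover differences of this size. DESeq2 1.42.0, DESeq2 size factors, no filter, the uninduced libraries alone, a replicate block, other expression thresholds and leaving out each library were alternatives. TPM per exon length in no other gene's exon was added after seeing the data.

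Named genes were the 20 highest by TPM, the 5 highest of each role list, the 3 highest of each other-tissue list, AGR2, CDX2, SOX9, the cell type markers, and the genes called between lines (up to 8 a direction). Further list members were named after their levels were seen. Members and lists were chosen with earlier results of these data known. Some list members are counted but not reported here by name.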

Additional observations from a re-analysis of the deposited data

Results flagged for a closer look

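The difference of OLFM4 between the SOX9 and GFP lines changed with doxycycline by 0.744877 on the log2 scale (SE 0.12, edgeR adjusted p = 0.0016), from 0.17 without to 0.92 with doxycycline. It is listed because the test of that change itself passed the threshold. Both SOX9-line libraries with doxycycline (72.1 and 68.1 CPM) lay above both without it (42.9 and 41.7 CPM).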

How the results depend on the processing

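The number of genes differing among the uninduced lines was 1 with edgeR, 3 with DESeq2, 39 without a filter on low counts and 0 when the 6 uninduced libraries were fitted alone. DESeq2 called 1 gene for M303 against GFP, 2 for SOX9 against GFP and 1 for SOX9 against M303. Without the filter these counts were 22, 17 and 0. Leaving out 1 library gave 0 to 27 genes for any line, 0 to 56 for M303 against GFP, 0 to 39 for SOX9 against GFP and 0 to 0 for SOX9 against M303. The highest counts came without GFP replicate 1, and the cause was not tested. OLFM4 in M303 against GFP stayed between 0.63 and 0.68 on the log2 scale over these 12 fits. Uncalled differences changed sign: SOX9 in M303 against GFP ran from -0.11 to 0.015, SOX9 in the SOX9 line against M303 from -0.12 to 0.0079, and CDX2 in the SOX9 line against M303 from -0.28 to 0.0082.

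The shared replicate numbers did not pair the uninduced samples (correlations of deviations -0.16 to 0.04). With the replicate block the counts were 1, 1, 0 and 0, in the order any line, M303 against GFP, SOX9 against GFP and SOX9 against M303, and the calls of OLFM4 stayed as they were. With doxycycline the block lowered the calls for SOX9 against GFP from 464 to 352, and those for the change of that difference from 163 to 139. Leaving out 1 library gave 203 (without induced SOX9 replicate 2) to 566 calls for SOX9 against GFP with doxycycline. The number of expressed protein-coding genes was 11259 to 11688 over 10 alternatives. Counting only exon bases of no other gene moved 5 mean TPM values by more than 1.5 times, those of VIL1, TAGLN, UGT1A1, CTSD and FTH1, by up to 2.56-fold. With 2 libraries a line, the median 95% confidence interval was ±0.25 on the log2 scale at a mean of at least 1 CPM. That interval is not corrected for the number of genes tested. Differences within it are not resolved for a typical gene, and larger ones also went uncalled. OLFM4 in SOX9 minus M303 (-0.48) and TFF3 in M303 minus GFP (0.55) are examples.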
